A study of Mus musculus with 6 samples.

Results

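The sites described here were open in both the lens and the renal cell line and were not called in the insulinoma line. They were selected on peak calls alone. All ATAC-seq peaks of β-TC3, MV+ and RAG cells on chromosomes 1 to 19 were merged into union intervals wherever they overlapped by at least 1 bp, and an interval was kept when it held at least 1 MV+ peak, at least 1 RAG peak and no β-TC3 peak. Of 34742 union intervals, 910 met this rule (2.62%). They held 911 of the 9418 MV+ peaks (9.67%) and 912 of the 13394 RAG peaks (6.81%) on these chromosomes.

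Pax6-HIGH cells (β-TC3) are a mouse insulinoma line. Pax6-ON cells (MV+) were cultured from the lens epithelia of a wild-type C57BL6 mouse. Pax6-OFF cells (RAG) are a renal adenocarcinoma line from BALB/c mice. No line was treated, and the names refer to how strongly each expresses *Pax6*. In ATAC-seq the Tn5 transposase cuts accessible DNA and leaves sequencing adapters there, so fragments pile up where chromatin is open. The reactions used 50000 nuclei, 11 cycles of amplification and 75 bp read pairs. The lysis buffer held 0.2% NP40 for MV+ and 0.1% for the other lines, so the buffer and the line cannot be told apart.

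Both replicates of a line had been pooled in 1 peak call, so each value below is 1 value per line with no replicate error. The level of a peak is given as its fold enrichment, the fragments at the summit over the background that the caller estimated around it. The calls rested on 100254099 fragments in β-TC3, 130955836 in MV+ and 102223606 in RAG cells, and no peak was called under 25 fragments at its summit in β-TC3 or RAG or under 30 in MV+. These are the lowest counts called and not a fixed limit, since each place was judged against its own background. A RAG peak with 68 fragments beside *Gm15319*, for example, had a −log10 q-value of only 1.70. An interval without a β-TC3 peak is therefore a place where no peak was called over that background, and was not shown to be closed.

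The labelled origins were visible at few promoters, and marker counts were near or below the share of all protein-coding genes with a promoter peak, which was 46.5% in β-TC3, 21.6% in MV+ and 36.6% in RAG cells. A peak at the promoter of *Pax6* and of *Prox1*, regulators of lens development, was called in MV+ and β-TC3 cells and not in RAG cells. None of the crystallin and fibre cell genes that define differentiated lens (among them *Cryaa*, *Crybb1* and *Mip*) had a promoter peak in MV+ cells, which had peaks at 3 of 19 lens markers, while β-TC3 cells had peaks at 4. RAG cells had peaks at 4 of 22 kidney markers, *Pax2*, *Sall1*, *Emx2* and *Cdh16*, and none at the nephron segment genes *Umod*, *Slc12a1* and *Aqp2*, while β-TC3 cells had peaks at 3 of the 22. Of 12 fibroblast markers each line had a peak at 1. β-TC3 cells had peaks at 8 of 16 islet markers, but none at *Ins1* or *Ins2*. Of the 8, *Neurod1*, *Nkx2-2*, *Chga*, *Rfx6* and *G6pc2* were called in no other line. *Nkx6-1* and *Isl1* also had a peak in MV+ cells, and *Mafa* had one in both other lines. MV+ cells thus had peaks at 3 of the 16 and RAG cells at 1.

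Open chromatin comes in 2 broad kinds. Promoters rich in CpG are open in most cells, because general factors keep their start sites free of nucleosomes. Distal elements, mostly enhancers, open where particular transcription factors bind, and differ far more between cell types. AP-1, a dimer of FOS and JUN family proteins that responds to growth factors, adhesion and stress, binds the letters TGANTCA and is a well-known opener of enhancers in epithelial and mesenchymal cells in culture. TEAD factors carry the YAP and TAZ signal of the Hippo pathway, which reports on cell spreading and contact, and often bind beside AP-1. RUNX factors control differentiation in blood, bone and epithelia.

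To show what these sites look like, the reference sequence of mm9 is given for 121 bp centred on the summit, on the plus strand. The first group holds the 6 distal sites with the highest levels in both lines among those with a single copy in the genome, each named by the nearest protein-coding start site. Capitals mark matches to AP-1 (TGANTCA), TEAD (TGGAATG) or RUNX (TGTGGTT) on either strand.
Hace1, chr10:46505743-46505863: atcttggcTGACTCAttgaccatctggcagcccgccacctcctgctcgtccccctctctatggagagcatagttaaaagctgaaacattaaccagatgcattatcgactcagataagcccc
Zfp950, chr19:61216704-61216824: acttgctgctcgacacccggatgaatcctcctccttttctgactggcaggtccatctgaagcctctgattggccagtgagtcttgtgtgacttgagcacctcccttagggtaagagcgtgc
Rorb, chr19:18964929-18965049: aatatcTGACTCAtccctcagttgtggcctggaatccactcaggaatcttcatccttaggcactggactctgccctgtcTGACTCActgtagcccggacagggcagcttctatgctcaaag
Nr5a2, chr1:138976132-138976252: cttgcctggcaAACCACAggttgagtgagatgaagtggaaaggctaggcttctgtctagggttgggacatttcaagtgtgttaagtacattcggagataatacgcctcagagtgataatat
Arrdc3, chr13:81102268-81102388: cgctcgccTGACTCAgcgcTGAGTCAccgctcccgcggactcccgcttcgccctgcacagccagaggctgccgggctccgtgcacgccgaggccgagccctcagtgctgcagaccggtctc
Cc2d2a, chr5:44083877-44083997: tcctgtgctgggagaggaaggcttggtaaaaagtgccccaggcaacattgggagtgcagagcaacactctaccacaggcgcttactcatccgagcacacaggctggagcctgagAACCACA
Of these 6 windows, those near *Hace1*, *Rorb* and *Arrdc3* held AP-1 letters, those near *Nr5a2* and *Cc2d2a* held RUNX letters, and that near *Zfp950* held none of the 3 motifs. In the sequence near *Arrdc3* a pair of AP-1 matches lay side by side near the start of the window. The next group holds the distal site with the highest lower level beside *Sox9*, a developmental transcription factor, and a site with TEAD letters beside *Phlda1*, an immediate response gene.
Sox9, chr11:112482876-112482996: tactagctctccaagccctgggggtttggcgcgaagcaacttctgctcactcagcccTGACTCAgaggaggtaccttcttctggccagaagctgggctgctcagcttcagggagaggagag
Phlda1, chr10:111008070-111008190: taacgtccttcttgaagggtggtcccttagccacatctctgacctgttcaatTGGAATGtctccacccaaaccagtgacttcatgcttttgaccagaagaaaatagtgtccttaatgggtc
The last group gives promoter sites. *Ifi204* had the highest levels of all promoter sites, *Amz2* lies in a long stretch of chromosome 11 without any β-TC3 peak, and *Rest*, chosen after its values were seen, encodes the repressor of neuronal genes in non-neuronal cells.
Ifi204, chr1:175697498-175697618: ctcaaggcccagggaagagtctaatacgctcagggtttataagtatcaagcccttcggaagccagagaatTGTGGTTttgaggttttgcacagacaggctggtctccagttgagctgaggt
Amz2, chr11:109287270-109287390: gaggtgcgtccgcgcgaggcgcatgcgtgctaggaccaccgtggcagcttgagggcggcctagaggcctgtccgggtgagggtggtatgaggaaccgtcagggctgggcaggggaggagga
Rest, chr5:77694467-77694587: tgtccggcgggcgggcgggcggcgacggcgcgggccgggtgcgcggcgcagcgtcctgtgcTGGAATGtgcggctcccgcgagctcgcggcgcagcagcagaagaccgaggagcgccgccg
The *Amz2* window held no AP-1, TEAD or RUNX letters, and the *Rest* window held 1 TEAD match.

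Shared sites were mainly distal. Only 131 of the 910 sites (14.4%, 95% Wilson interval 12.3 to 16.8) lay within 1 kb of the start site of a protein-coding gene, here called promoter sites. Among sites common to other pairs of lines the promoter share was far higher, 67.6% of 4478 sites of β-TC3 and RAG and 49.9% of 959 sites of β-TC3 and MV+. It reached 75.6% among the 4341 sites open in all 3 lines. The share of shared sites differed by −53.2 percentage points from that of β-TC3 and RAG (95% interval −55.7 to −50.4), by −35.6 points from that of β-TC3 and MV+ (−39.4 to −31.6) and by −61.2 points from that of all 3 lines (−63.7 to −58.5). Fisher's exact test, two-sided and adjusted over these 3 comparisons, gave 2.99e-201, 8.92e-63 and 5.19e-268. These p-values count intervals within 3 pooled calls and not replicates, so they do not measure how cultures vary. The share stood near that of sites called in 1 line only, which was 8.96% in MV+, 15.4% in β-TC3 and 18.5% in RAG cells.

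**Figure D1:**
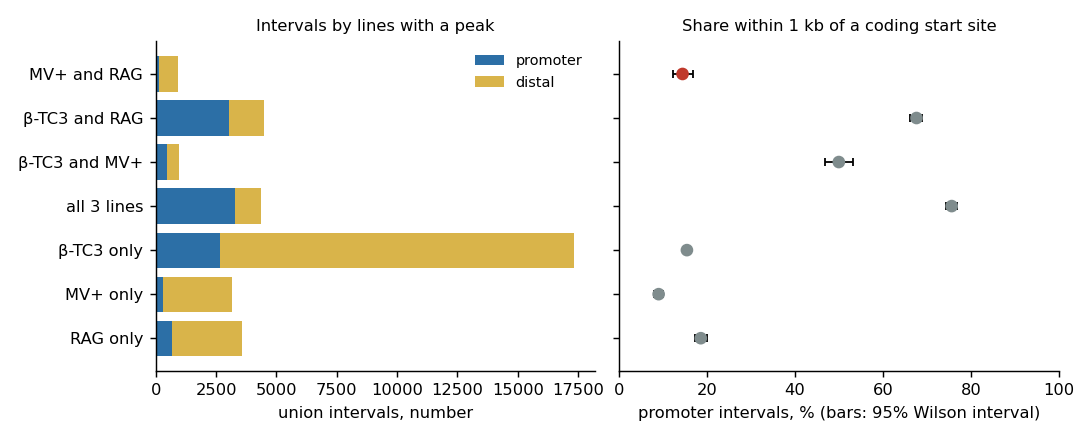
Union intervals on chromosomes 1 to 19 by the lines in which a peak was called. Left, number of intervals (x axis), split into promoter (blue) and distal (yellow) intervals. Right, share within 1 kb of a protein-coding start site in percent, with 95% Wilson intervals, the sites of MV+ and RAG in red. These sites stand at 14.4%, beside 67.6% and 49.9% for the other pairs of lines and 75.6% for all 3 lines.

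Seen from the other side, 3414 promoter intervals had both an MV+ and a RAG peak, and 3283 of them (96.2%) also had a β-TC3 peak. Of the 1837 distal intervals with both peaks, 42.4% had none in β-TC3 cells. The promoter share depended on how the lists were matched: it was 34.1% of 1419 sites when each line was limited to its 9418 peaks with the smallest q-values, and 31.1% of 1035 sites when peaks had to overlap by 50% of both. It stayed below each of the 3 comparison groups in both settings, with an adjusted p of at most 1.43e-15.

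The promoters that the lens and renal lines shared were less often CpG-rich than those that either line shared with β-TC3 cells. In the 300 bp around the summit, 82 of 131 promoter sites (62.6%) had a GC content of at least 50% and an observed to expected CpG ratio of at least 0.6. This compared with 89.8% of promoter sites of β-TC3 and RAG, a difference of −27.2 points (−35.8 to −19.3, adjusted p = 1.70e-15, Fisher's exact test). For promoter sites of β-TC3 and MV+ the share was 76.4%, a difference of −13.8 points (−23.1 to −5.03, adjusted p = 0.00245 by the same exact test). The difference from β-TC3 and MV+ no longer passed in both matched settings. By the exact test, with equal peak numbers the shares were 78.3% and 81.8% (adjusted p = 0.211), and with an overlap of 50% they were 80.7% and 74.4%, the other direction (adjusted p = 0.0536). The difference from β-TC3 and RAG kept its direction and passed the test in both. Of the 779 distal sites, 25 (3.21%) were CpG-rich, against 27.0% for β-TC3 and RAG and 16.5% for β-TC3 and MV+ (adjusted p = 7.33e-52 and 9.62e-16, exact test). With equal peak numbers the distal share was 10.1%, still below both. Sites called in 1 line only were similarly poor in CpG, with 52.8% of MV+, 64.8% of β-TC3 and 67.4% of RAG promoter sites and 1.75%, 3.90% and 4.87% of distal sites being CpG-rich.

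The median distance of the distal sites to the nearest protein-coding start site was 55.1 kb, and 266 of them (34.1%) were more than 100 kb away. Distal sites called in MV+ only (57.3 kb and 36.3%) and in β-TC3 only (49.3 kb and 31.5%) were similar, and those of β-TC3 and RAG were nearer (33.3 kb and 23.9%). By the GENCODE M1 annotation 281 fell in introns, 34 in exons and 464 between genes. A further 52 of the 910 sites lay within 1 kb of a start site of a gene that is annotated as other than protein-coding.

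Levels in the lens and renal lines were of similar size. The fold enrichment of the 910 sites ranged from 1.63 to 26.4 in MV+ cells, with a median of 3.95, and from 1.61 to 26.7 in RAG cells, with a median of 3.97. In 676 sites (74.3%) the values were within 1.5 times of each other. At 37 sites the level was more than 2 times higher in MV+ and at 15 more than 2 times higher in RAG cells. Over these 910 sites, which come from the same pair of libraries and were all required to be called in both, the Spearman correlation was 0.49 and Pearson's r of the log2 values was 0.53. Summits of the MV+ and RAG peaks were a median of 49 bp apart, and 813 sites (89.3%) had peaks whose overlap covered at least 80% of the shorter one. The sites were short, with a median length of 512.5 bp and a range of 224 to 3140 bp, and 907 held exactly 1 peak of each line.

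**Figure D2:**
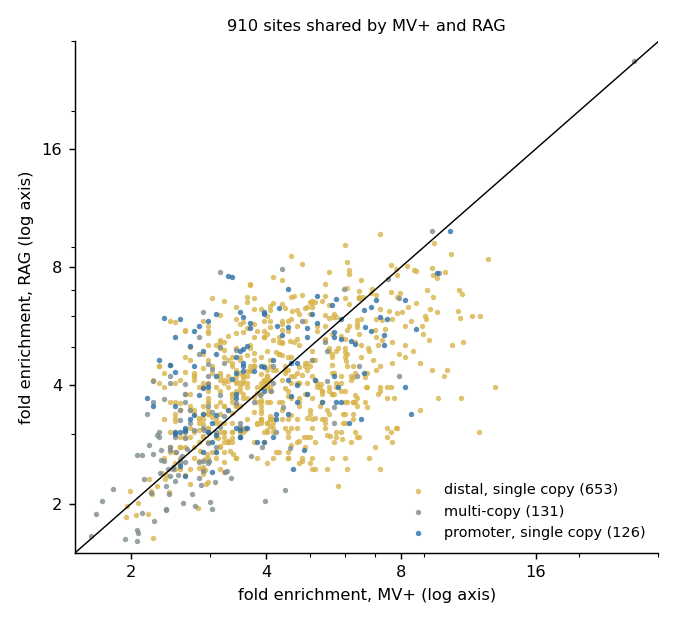
Fold enrichment of each of the 910 shared sites in MV+ cells (x axis) and RAG cells (y axis), both on log axes, with the line of equal values. Yellow points are distal single-copy sites (653), blue points promoter single-copy sites (126) and grey points sites in sequence present more than once in the genome (131). The point alone at the upper right has 26.4 in MV+ and 26.7 in RAG cells and shares sequence with the mitochondrial genome, and the grey points crowd at low levels.

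A part of the sites stood in repeated sequence. The 300 bp around each summit were split into 30-base words and the copies of each word were counted in mm9. The median copy number was 2 or more at 131 sites (14.4%), here called multi-copy. That share was 17.4% for β-TC3 and RAG and 10.5% for β-TC3 and MV+. Multi-copy sites were lower, with median levels of 2.83 in MV+ and 3.04 in RAG cells against 4.15 and 4.05 for the 779 single-copy sites. Only 5 of them were promoters. The strongest site of all, chr5:60434086-60434309, with 26.4 in MV+ and 26.7 in RAG cells, had 149 of its 271 words on the mitochondrial genome.

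The edges of the rule were soft in some places. The weakest member, beside *Gm15319* on chromosome 8, had −log10 q-values of 5.48 in MV+ and 1.70 in RAG cells. Next came sites beside *Gm8113* and *Rad51ap2*, with 1.81 and 1.97 in RAG cells. Just outside lay a site beside *Rbm20* where MV+ and RAG had 2.70 and 4.39 fold, and a β-TC3 peak with a −log10 q of 1.40 and 2.03 fold removed it from the list. Sites beside *Creb5* and *Sp140* were removed in the same way by β-TC3 peaks of 1.97 and 1.88 fold. The nearest β-TC3 peak was a median of 34600 bp from a shared site. It was under 1 kb away at 27 sites (2.97%), and 5 bp away at a site beside *St8sia1*.

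AP-1 letters were the most frequent of the motifs that set these distal sites apart from those open in β-TC3 cells. TGANTCA occurred within 150 bp of the summit at 445 of 779 distal sites (57.1%, 95% Wilson interval 53.6 to 60.6). It occurred at 14.8% of distal sites of β-TC3 and RAG, a difference of 42.3 points (38.3 to 46.1), and at 31.7% of those of β-TC3 and MV+, a difference of 25.5 points (19.9 to 30.7). For sites of all 3 lines the share was 13.5%, and for β-TC3 alone 16.8%. It was no higher than among distal sites called in MV+ cells only, at 58.0% (difference −0.85 points, −4.79 to 3.03), while RAG-only sites had 29.4%. As background, 5.77% of 43968 protein-coding start sites and 9.18% of windows 2 kb to either side of these summits held the letters in a window of the same length. No test was run on motif shares, and the intervals cover counting error only.

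**Figure D3:**
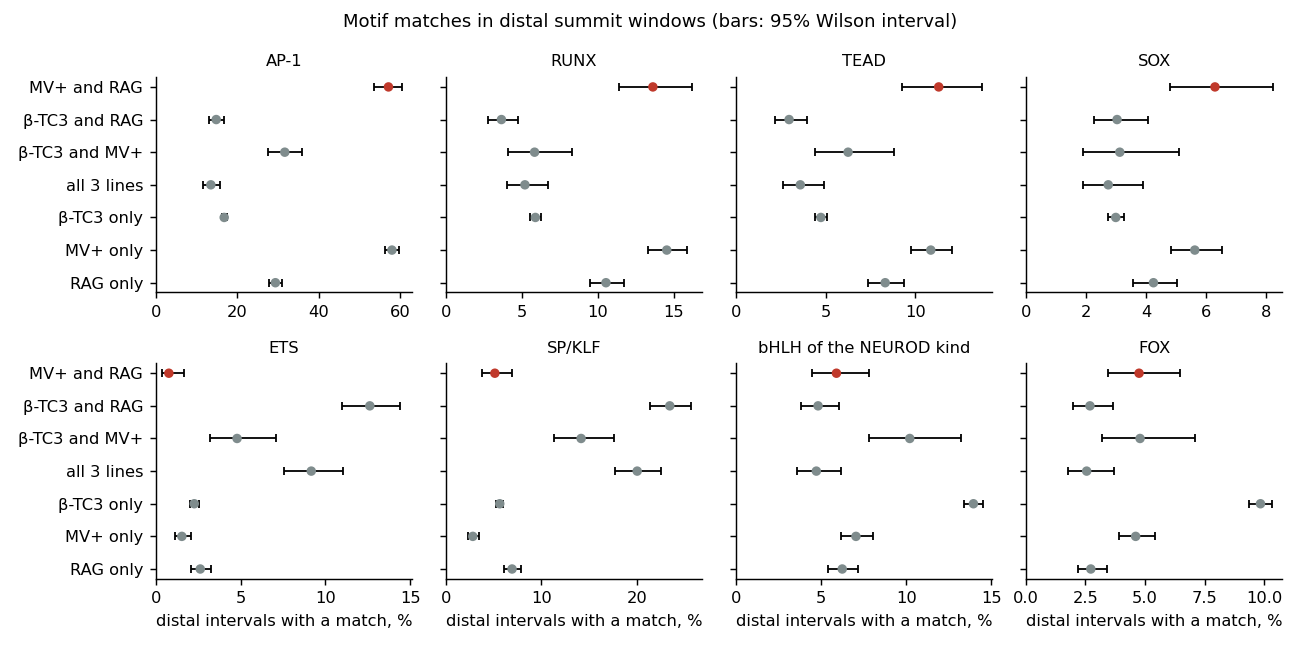
Share of distal intervals (x axes, percent) with a match to each of 8 motifs in the 300 bp around the summit, by the lines in which a peak was called (y axis), with 95% Wilson intervals. The sites of MV+ and RAG are in red. AP-1 stands at 57.1% there and at 58.0% in MV+ only, far from the 14.8% of β-TC3 and RAG, while the NEUROD-kind and FOX letters are most frequent in β-TC3 only.

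The matches sat at the centre of the sites. Among the 445 sites the nearest match was a median of 38 bp from the summit, and at 129 (29.0%) it was within 25 bp. In the bins of 50 bp before and after the summit there were 23.6 and 20.0 matches per 100 sites, compared with 2.05 and 1.03 in the outermost bins, up to 500 bp away. At 396 sites the middle base was C or G, the form that AP-1 dimers are known to prefer, and at 111 it was A or T. At 186 sites there were at least 2 matches. The letters also went with the level: median fold enrichment was 4.48 in MV+ and 4.05 in RAG cells at sites with a match and 3.31 and 3.53 at those without. When the distal sites were ranked by the lower of their levels into 4 groups of 194 or 195, the share with AP-1 was 34.0%, 56.9%, 64.1% and 73.3% from the lowest to the highest group. Multi-copy sites held the letters less often, at 20.6% of 126 distal sites against 64.2% of 653 single-copy ones. Among single-copy sites of β-TC3 and RAG it was 26.1% and of β-TC3 and MV+ 38.4%, and with equal peak numbers the shared sites had 41.6% against 17.5% and 36.9%.

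**Figure D4:**
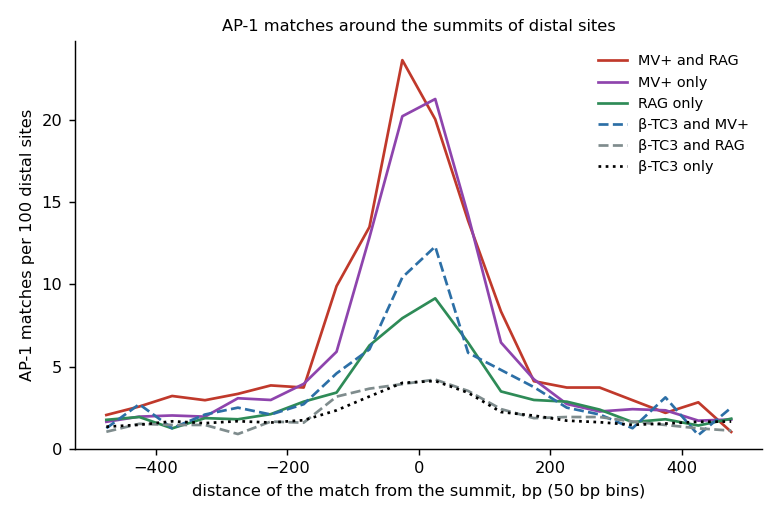
AP-1 matches per 100 distal sites (y axis) by distance from the summit in bins of 50 bp (x axis, bp), a line for each set of lines with a peak. The curve for MV+ and RAG (red) peaks at 23.6 matches per 100 sites next to the summit and falls to between 1.03 and 2.05 at its ends, close to the curve for MV+ only.

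TEAD and RUNX letters were also more frequent at these sites than at those of either pair with β-TC3, at lower shares. TGGAATG was found at 88 distal sites (11.3%), against 2.97% for β-TC3 and RAG (difference 8.33 points, 6.06 to 10.9), 6.25% for β-TC3 and MV+ (5.05, 1.80 to 8.08) and 10.9% for MV+ only. TGTGGTT was found at 106 sites (13.6%), against 3.66%, 5.83% and 14.5% in the same groups. RAG-only sites had 8.32% for TEAD and 10.5% for RUNX, above β-TC3 and MV+ in both cases, whereas their AP-1 share was below it. The windows 2 kb away had 4.69% and 6.48%. With equal peak numbers TEAD letters stood at 8.88% of shared distal sites, against 1.22% for β-TC3 and RAG and 6.42% for β-TC3 and MV+. The gap to β-TC3 and MV+ was thus smaller in that setting, in which RUNX letters were not recomputed. Of the 88 sites with TEAD letters 52 also held AP-1 letters, as did 58 of the 106 with RUNX letters. Both counts were near the 57.1% of all 779 distal sites that held AP-1 letters. At least 1 of the 3 motifs was present at 524 distal sites (67.3%). SOX letters (ACAATGG) occurred at 6.29%, against 3.03% for β-TC3 and RAG and 3.12% for β-TC3 and MV+, but also 5.62% for MV+ only and 5.07% in the windows 2 kb away.

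Other motifs were less particular to a set of lines or were scarce. The NFI letters TTGGCA were the next most frequent, at 21.8%, 10.5 points above β-TC3 and RAG (7.25 to 13.9) and 5.78 points above β-TC3 and MV+ (1.28 to 10.1), but 20.8% for β-TC3 only, 20.0% for MV+ only and 15.3% in the windows 2 kb away. NF-Y (CCAATNA) and C/EBP (TTGCNNAA) letters, at 13.2% and 12.3%, stood near the 12.9% and 11.3% of those windows. The ETS letters CCGGAAG, common at CpG-rich promoters, were found at 6 distal sites (0.77%) against 12.6% for β-TC3 and RAG, and the SP/KLF letters GGGCGGG at 5.13% against 23.4%, with 1.16% and 1.93% in the windows 2 kb away. The letters CAGATGG, bound by bHLH factors such as NEUROD1 that drive islet and neuronal genes, were found at 5.91% of shared distal sites and 13.9% of those called in β-TC3 only, a difference of −8.04 points (−9.60 to −6.08), and at 5.84% of the windows 2 kb away. FOX letters (TGTTTAC) stood at 4.75% and 9.84% in the same groups. CTCF letters (CNAGGGGGC) were found at 0.64%, close to the 0.51% of the windows 2 kb away. The MAF letters TGCTGAC occurred at 70 distal sites (8.99%), against 5.79% for β-TC3 and RAG, 13.3% for β-TC3 only and 4.17% in the windows 2 kb away, and at 18 of them they overlapped an AP-1 match. The shared promoter sites held AP-1 letters at 16 of 131 (12.2%), against 3.57% for β-TC3 and RAG and 5.01% for β-TC3 and MV+, and SP/KLF letters at 48.1%.

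At the level of genes, 132 of 21275 protein-coding genes had a shared site at a promoter (0.620%), and 115 of these had no β-TC3 peak at any of their start sites. A further count, of genes whose start site was the nearest to a shared distal site, gave 616 genes (2.90%).

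The highest promoter sites belonged to genes of varied function. *Ifi204* led with 10.3 in MV+ and 9.90 in RAG cells, and its neighbour *Mnda*, at a multi-copy site, had 7.47 and 7.45. Both encode interferon-inducible proteins of the PYHIN family, which sense DNA. Among the other 13 of the 15 highest were *Amz2* (9.64 and 7.74), which encodes a metalloprotease, *Wipi1* (8.16 and 6.59), an autophagy protein, and *Pax9* (6.61 and 6.21), a developmental transcription factor of the paired box family. *Lrig1*, which restrains ErbB receptors, had 7.18 and 5.96, and *Axin2*, the feedback inhibitor of Wnt signalling, 6.64 and 5.62. *Sema3c*, a secreted guidance factor, had 6.85 and 5.51. The others were *Cyb561*, *Zfp938*, *Prelid2*, *Gramd3*, *Zfp493*, *Rgs9* and *Trim12c*, with lower levels between 5.57 and 6.60.

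Genes of the Hippo pathway's output were present in small number. Of 22 YAP/TEAD target genes, 3 (13.6%) had a shared promoter site, beside 0.620% of all genes. *Ptpn14*, a phosphatase that binds and restrains YAP, had 6.32 in MV+ and 5.10 in RAG cells. *Crim1* had 3.56 and 4.94, and *Ankrd1*, a frequently used reporter gene of YAP activity, 3.43 and 3.80. *Ptpn14* also had a distal site 11.9 kb from its start with both AP-1 and TEAD letters (5.54 and 3.97), and *Ankrd1* had a distal site 9.65 kb away (3.36 and 3.80). *Asap1* and *Tgfb2* were nearest to 1 distal site each. A β-TC3 promoter peak was called at 11 of the 22, near the 46.5% of all genes.

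None of the 12 subunit genes of AP-1 had a shared promoter site, a count near the 0.620% of all genes. A promoter peak was called at 9 of them in β-TC3, 3 in MV+ and 10 in RAG cells. *Jun* was nearest to a distal site 53.7 kb away with AP-1 letters (6.69 in MV+ and 3.97 in RAG cells), and *Fos* to a site 23.9 kb away (3.16 and 5.23).

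Genes of matrix and adhesion appeared mostly through distal sites, as did genes in general (0.620% at a promoter and 2.90% by nearest distal site). Those of the cytoskeleton did not. Of 34 extracellular matrix genes 1 had a shared promoter site, *Col12a1*, which encodes a collagen associated with fibrils (4.48 in MV+ and 3.37 in RAG cells). Among those nearest to 1 distal site each were *Col12a1*, *Dcn* and *Tnc*. The site nearest to *Tnc*, the gene for the matrix glycoprotein tenascin-C, lay 55.8 kb from its start. It had 7.18 in MV+ and 2.45 in RAG cells. None of 24 integrin and focal adhesion genes had a shared promoter site, while *Itga2*, *Itga5*, *Itgb1*, *Itgb3* and *Tns3* were each nearest to 1 distal site (20.8%, beside 2.90% of all genes). The site 18.7 kb from *Itgb1*, the common β1 integrin, held AP-1, TEAD and RUNX letters, with 7.05 and 4.39. None of 7 caveola genes had either kind. Of 21 contractile, annexin and S100 genes, 3 (14.3%) had a shared promoter site and 2 (9.52%) were nearest to a distal one. The 3 were *Anxa3* (3.95 and 6.15), *Tagln2* (3.49 and 3.08) and *Vim* (2.24 and 3.53). *Vim* is the gene for the intermediate filament vimentin. *Anxa3* was also nearest to a distal site 173 kb from its start, at 7.05 and 6.80.

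Few genes of signalling pathways had a shared promoter site, and counts this small cannot rank the pathways. For the counts that follow, 0.620% of all genes had a shared promoter site and 2.90% were nearest to a shared distal site. None of 31 TGF-β and BMP pathway genes had a shared promoter site, a count near the share of all genes. Of the 31, 6 (19.4%) were nearest to 9 distal sites in all. The receptor genes *Tgfbr2* and *Tgfbr3* and the activin subunit gene *Inhba* had 2 sites each, the *Inhba* ones 628 and 747 kb away, and *Tgfb2*, *Smad4* and *Smurf1* 1 each. Of 29 growth factor ligands and receptors *Fgfr2* and *Nrg1* had a shared promoter site, and both also had a β-TC3 peak at another start. *Vegfc*, a lymphatic growth factor, was nearest to a distal site 139 kb away with 12.0 in MV+ and 5.99 in RAG cells. Of 26 Wnt pathway genes *Axin2* and *Tcf7l2* (3.43 and 3.71) had one, and of 11 Notch pathway genes *Jag1*, a ligand (4.68 and 4.57). Of 28 innate immune genes 1 (3.57%) had a shared promoter site, the chemokine gene *Cxcl1* (3.82 and 2.87). None of 20 glycolysis and hypoxia genes or of 17 p53 and cell-cycle inhibitor genes had one, counts near the share of all genes.

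Transcription factors and junction genes added a few more, to be read beside the same shares of all genes (0.620% and 2.90%). *Runx1*, from a family whose letters were frequent at the distal sites, was the only 1 of 16 mesenchymal, TEAD and RUNX factor genes with a shared promoter site (2.90 in MV+ and 3.37 in RAG cells), and its β-TC3 gap was 999 bp. *Runx2*, *Twist1* and *Tcf4* were each nearest to 1 distal site, that of *Runx2* at 4.41 and 6.31. Among epithelial junction and keratin genes, *F11r*, of the tight junction, had a shared promoter site (4.22 and 3.37) and *Cldn1* a distal one.

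Genes that β cells normally keep low were the list with the largest share of shared promoters. Beta-cell disallowed genes are expressed in most tissues and kept low in islet β cells. Of 22, 5 (22.7%) had a shared promoter site, beside 0.620% of all genes. None of the 5 had a β-TC3 peak at any start site, as held for 115 of all 132 genes with a shared promoter site. They were *Oat*, ornithine aminotransferase (5.86 in MV+ and 5.25 in RAG cells), *Arhgdib*, a regulator of small GTPases (4.68 and 3.63, with AP-1 letters), *Cd44*, the hyaluronan receptor (3.43 and 4.72), *Acot7*, an acyl-CoA thioesterase (2.97 and 3.04), and *Nfib*, a transcription factor (2.83 and 3.77). Another 8 of the 22 had a β-TC3 promoter peak, beside 46.5% of all genes. *Oat* also had a distal site 24.6 kb from its start (4.35 and 5.52). Both *Oat* sites lay in a stretch of 1199294 bp on chromosome 7 without a β-TC3 peak. *Rest*, outside these lists, had 2.90 in MV+ and 4.89 in RAG cells at a CpG-rich promoter.

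Neuroendocrine and marker genes had few or no shared sites, as did genes in general (0.620% at a promoter and 2.90% by nearest distal site). None of 21 granule and exocytosis genes had a shared site at the promoter or as nearest distal site, and 15 of them had a promoter peak in β-TC3, 3 in MV+ and 1 in RAG cells. None of the 16 islet markers had a shared promoter site, and *Nkx2-2* was nearest to 1 distal site (4.48 and 2.95). None of the 19 lens markers had a shared promoter site or was the nearest gene to a shared distal site. *Crygf*, a lens γ-crystallin gene outside that list and named after its values were seen, lay 6.16 kb from a single-copy distal site with 6.13 in MV+ and 6.44 in RAG cells. Of the 22 kidney markers *Emx2*, a transcription factor of the early kidney and forebrain, had 2 shared promoter sites, the higher at 3.10 in MV+ and 3.37 in RAG cells. Of the 12 fibroblast markers *Dcn* and *Twist1* were nearest to a distal site each.

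At 17 genes with a shared promoter site a β-TC3 peak was called at another annotated start site. Use of start sites was not measured, and at *Tagln2* the β-TC3 peak lay 322 bp from the shared site. Besides *Fgfr2*, *Nrg1* and *Tagln2* these included, named after their values were seen, *Hsp90aa1* (3.10 in MV+ and 4.81 in RAG cells), *Plec*, which links intermediate filaments to adhesions (2.64 and 3.07), *Myo10*, a filopodial motor (5.07 and 6.08). They also included *Cyb561*, an electron carrier of secretory granules (7.05 and 6.60). The shared site of 7 of these 17 genes held AP-1 letters, as did that of 9 of the 115 genes without any β-TC3 promoter peak.

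Distal sites gathered near some genes. *Sox9* was nearest to 5, between 161 and 319 kb from its start, all with AP-1 letters, and 4 of them lay within 103 kb of each other. The site highest in MV+ cells, at 10.1 against 4.39 in RAG cells, also held TEAD letters. *Phlda1* was nearest to 5, from 10.3 to 114 kb away, with medians of 2.97 and 3.63 and AP-1 letters at 3. *Slc4a4*, a bicarbonate transporter gene, was nearest to 3 sites, all in introns of annotated genes, with medians of 6.19 and 6.29. They lay in a stretch of 71.0 kb that held no site of any other kind. *Slit2*, *Prickle1*, *Has2*, *Sox5*, *Sp8*, *Prl2c3*, *Gm7697* and *Zfp640*, named after their values were seen, were also nearest to 3 each, and all 3 beside *Has2*, which makes hyaluronan, held AP-1 letters. The sites of the last 3 genes were multi-copy.

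The groups with most sites lay in immunoglobulin and repeated loci. On chromosome 12, 50 shared sites fell in 767 kb (116305177 to 117072161) that held 29 immunoglobulin heavy chain V genes in the annotation, with median levels of 2.87 in MV+ and 2.61 in RAG cells. The nearest protein-coding start site was *Ighv1-73*, 20 of the 50 were multi-copy, and 7 held AP-1 letters. Among them lay 74 RAG-only and 12 MV+-only sites, 5 of all 3 lines, 1 of β-TC3 and RAG and 1 of β-TC3 only. Another 12 lay in 208 kb beside *Adam6a* (114826411 to 115034598). On chromosome 8, 17 sites in 324 kb beside *Gm15319* and *4930467E23Rik* were all multi-copy, with medians of 2.39 and 1.97. The same 324 kb held 32 sites of all 3 lines, 8 of β-TC3 and MV+, 1 of β-TC3 and RAG and 2 of β-TC3 only. It also held 16 MV+-only and 8 RAG-only sites. *Gm7112* was nearest to 5 sites, which lay on chromosome 12 between both immunoglobulin groups (115693443 to 116044755). None of them held AP-1 letters. In all, 20 groups of at least 3 sites no more than 100 kb apart held 137 of the 910 sites. Without both immunoglobulin groups, but with the *Gm7112* sites kept, AP-1 letters were present at 60.5% of the distal sites.

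Some sites lay where β-TC3 cells had no peak at all over a long distance. Between 108873387 and 112822389 on chromosome 11, 3949001 bp without a β-TC3 peak and the 3rd longest of 27153 such stretches, there were 10 shared, 19 MV+-only and 3 RAG-only sites. Of the 10 shared sites 6 were promoters, all named here whatever their level: *Rgs9* (5.60 in MV+ and 6.41 in RAG cells), *Gna13*, a G protein α subunit (5.67 and 5.48), *Amz2*, *Wipi1*, *Prkar1a*, the regulatory subunit of protein kinase A (4.48 and 7.05), and *Sox9* (4.60 and 2.45). *Fam20a*, *Abca5* and *Map2k6* had promoter peaks in MV+ cells only. A shorter stretch on chromosome 7, 1199294 bp, held the shared promoters of *Chst15* and *Oat*. Genomic DNA was not analysed here, so absence of a β-TC3 peak and absence or loss of the DNA in that line cannot be told apart. Leaving out the chromosome 11 stretch left 900 sites, 13.9% of them promoters.

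**Figure D5:**
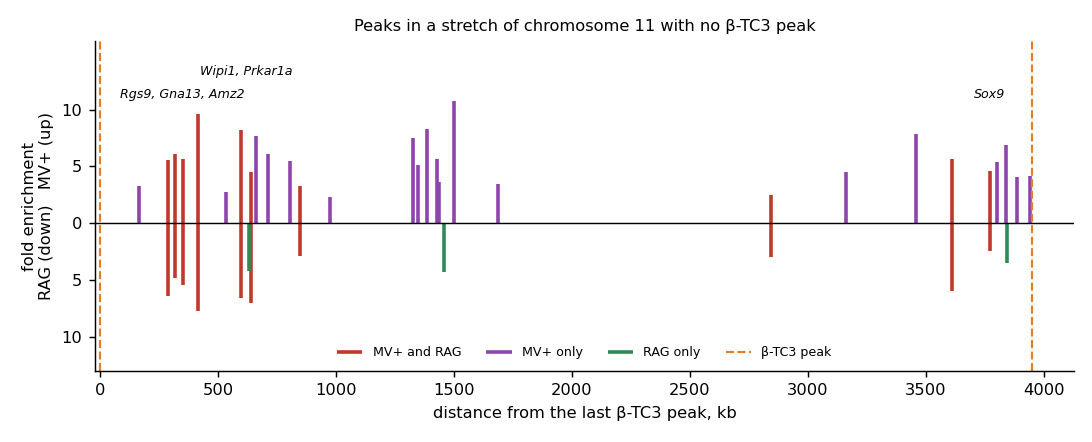
Peaks of MV+ cells (bars up) and RAG cells (bars down) in a stretch of chromosome 11 without a β-TC3 peak, by distance from the last β-TC3 peak (x axis, kb) and with fold enrichment as bar height. Red bars are shared sites, purple MV+ only and green RAG only, dashed lines mark the β-TC3 peaks at both ends, and names give the 6 shared promoters. Of the 10 shared sites, 7 lie in the left part, 2 lie near *Sox9* at the right and 1 stands alone between them.

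Across chromosomes the sites were unevenly spread. Chromosome 5 held 105 (11.5% of shared sites, beside 6.29% of all union intervals) and chromosome 12 held 102 (11.2% beside 5.13%), of which 62 were in the immunoglobulin groups. Chromosome 6 held 39 (4.29% beside 13.0%). Copy number differs between cultured lines and was not measured here, so its part in these shares was not tested.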

How the data were processed

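ATAC-seq was done in duplicate in 3 mouse cell lines (6 samples). Per the labels and file headers, the authors trimmed reads with Trim Galore 0.4.1, aligned them to mm9 with Bowtie2 2.2.6 and ran MACS2 2.1.1 (q-value limit 0.05) on both replicates of a line together, without a control and keeping all duplicates. MACS2 took whole fragments with no shift for the Tn5 cut, which can widen peaks and move summits. The deposited pileup is a signal, the fragments at the summit, not scaled for depth. Fold enrichment, as deposited, is a ratio of pileup to local background after adding 1 to each. The deposited p-values and q-values are −log10 values. No value here comes from a column of the authors' comparisons.

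Intervals were annotated with NCBIM37 (mm9) and GENCODE M1 in Python 3.11.15 with pandas 2.3.3, pysam 0.24.0 and SciPy 1.17.1. A promoter site lay within 1 kb of a protein-coding start site. CpG content and 21 motifs, on both strands, were read in 300 bp around the summit of the highest peak, and copies by 30-base words. Promoter shares (3 comparisons) and CpG-rich shares (4 comparisons) were tested with Fisher's exact test and adjusted by Benjamini-Hochberg, which counts intervals and not replicates. Motif shares have Wilson and Newcombe 95% intervals, and 21 gene lists were described by counts. The steps were tested on simulated data.

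The sites, lists and rules were chosen with earlier results of these data known. Genes were named when they had any of the 15 highest promoter or distal sites by the lower fold enrichment, when they were listed genes with a shared promoter site or with most distal sites, when they were among the 8 nearest to most distal sites, or when they lay at the edge of the peak threshold. Genes of the long stretches without a β-TC3 peak and those marked so in the text were named after their values were seen. Alternatives were q-value cuts of 0.01 and 0.001, equal peak numbers, other overlaps, gaps, windows and annotation, and 3 added after seeing the data. Sequence beyond chromosomes 1 to 19 was left out by the rule, and some members of the gene lists are not reported here.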

Additional observations from a re-analysis of the deposited data

Results flagged for a closer look

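The rule covers chromosomes 1 to 19. On chromosome X, outside every comparison above, 13 further intervals had an MV+ and a RAG peak and no β-TC3 peak. Beside them on that chromosome were 147 intervals of β-TC3 and RAG, 37 of β-TC3 and MV+ and 134 of all 3 lines. Another 345 were called in β-TC3 only, 133 in RAG only and 35 in MV+ only. The fold enrichment of the 13 ranged from 2.12 to 6.33 in MV+ cells and from 1.97 to 7.34 in RAG cells. The highest by the lower of its levels, at chrX:153463442-153464022 of mm9, had 6.33 in MV+ and 6.66 in RAG cells. No control library was analysed, so these values have only the local background of their own library beside them.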

How the results depend on the processing

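Across 14 alternatives, 11 of them planned and 3 added after seeing the data, 75 of 87 recomputed values kept their direction and side of the threshold or stayed within their limits. Limiting each line to 9418 peaks gave 1419 shared sites, 538 genes with a shared promoter site, AP-1 letters at 41.6% and TEAD letters at 8.88% of distal sites, and a CpG-rich share of promoter sites of 78.3% that no longer passed against β-TC3 and MV+. Requiring an overlap of 50% of both peaks gave 351 genes and a CpG-rich promoter share of 80.7%, above β-TC3 and MV+ and so reversed. Windows of 200 and 500 bp gave AP-1 shares of 50.1% and 63.5% and TEAD shares of 8.73% and 14.2%, since shorter windows hold fewer letters. Single-copy sites alone gave an AP-1 share of 64.2%. The cause of the other changes was not tested. The promoter share ranged from 13.7% to 34.1% and stayed lower than all 3 groups throughout (largest adjusted p of the exact tests, 1.43e-15).

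No paired analysis was possible because both replicates of each line had been pooled in 1 peak call, and no replicate was left out for the same reason. Depth and local background limit the absent calls, and the lowest β-TC3 peak called had 25 fragments at its summit. Weak β-TC3 accessibility, repeated sequence and copy number at single sites were not resolved by these files.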

Other observations

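Some shared sites lay at zinc-finger and TRIM family genes. *Zfp938* (6.85 in MV+ and 6.33 in RAG cells) and *Zfp493* (5.73 and 6.64) had shared sites at their promoters, *Zfp101* had 2.50 and 5.32, and *Zfp950* and *Zfp748* were nearest to distal sites with 10.3 and 8.62 and with 7.78 and 7.91. The TRIM family genes *Trim6* (4.48 and 4.13) and *Trim12c* (8.63 and 5.57) had shared promoters in a stretch of chromosome 7 without a β-TC3 peak for 503881 bp, and *Trim16* had 5.67 and 4.22. These genes were picked after their values were seen, and no count over their families was made.

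Other genes with a shared promoter, of varied function and again picked after their values were seen, were the following. *Pard3*, a polarity scaffold, had 5.21 in MV+ and 6.75 in RAG cells, and *Dab2*, an endocytic adaptor, had 3.56 and 5.98. *Plxnb2*, a semaphorin receptor, had 4.68 and 4.02. *Kitl*, the ligand of the KIT receptor, had 5.21 and 5.75. *Ets1*, a transcription factor, had 4.15 and 4.64, and *Ahr*, the aryl hydrocarbon receptor, had 2.37 and 5.92.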
